A study of Mus musculus with 192 samples.

Results

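The 10 genes described here set whether a cell lives or dies: Bcl2a1a, Bcl2a1b, Bcl2a1d, Mcl1, Bcl2l1, Bcl2l11, Birc3, Cflar, Pmaip1 and Bax. They were chosen by name from the 23481 genes of the count table, and each was read in all 64 groups of libraries. A filter on low counts kept 6 of the 10 among the 4720 genes tested: Mcl1, Bcl2l1, Bcl2l11, Birc3, Cflar and Bax. The 3 Bcl2a1 copies and Pmaip1 did not pass it and are given by their counts and by fits without that filter. Levels are given in CPM, the count of unique molecular identifiers (UMIs) scaled to library size with edgeR's trimmed mean of M-values (TMM).

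The cells were dendritic cells grown from bone marrow of female C57BL/6J mice aged 6 to 8 weeks, in medium with GM-CSF, which drives myeloid growth in culture. Wells of 100000 cells received pattern recognition receptor ligands for 6 hours. The 7 ligands were PAM, LPS (bacterial lipopolysaccharide), HMW, Zymosan (depleted zymosan, a yeast cell wall preparation), SeV, cGAMP (3',3'-cGAMP, a cyclic dinucleotide sensed through STING) and CpGB (a CpG DNA). The design held Ctrl, the 7 single ligands, all 21 pairs and all 35 triplets, with 3 libraries each, 192 in all, and each condition is named here by its ligands. Mouse strain, GM-CSF culture and time were shared by all groups, and the labels do not say what the Ctrl wells received. Each library came from a whole well, so fewer cells of a type and less RNA per cell cannot be told apart.

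Apoptosis through mitochondria is decided among relatives of Bcl2. Guardians such as Mcl1, Bcl2l1 (Bcl-xL) and the Bcl2a1 proteins hold back the pore former Bax, and the BH3-only proteins Bcl2l11 (Bim) and Pmaip1 (Noxa) bind the guardians and release that brake. Death receptors use a separate route, on which Cflar (c-FLIP) blocks the activation of Casp8, while Birc3 is a ubiquitin ligase of the inhibitor of apoptosis family that keeps tumour necrosis factor receptors signalling to NF-kB. In dendritic cells, sensing of microbes is known to raise survival genes that are NF-kB targets, and Bim is known to limit the life span of these cells.

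The Bcl2a1 copies are shown first because their sequences limit what can be counted. The first 180 coding bases of each, of 519 in all, read from the GENCODE M21 transcripts of build GRCm38, are below, 5′ to 3′, with capitals where the 3 copies are not all alike.
Bcl2a1a: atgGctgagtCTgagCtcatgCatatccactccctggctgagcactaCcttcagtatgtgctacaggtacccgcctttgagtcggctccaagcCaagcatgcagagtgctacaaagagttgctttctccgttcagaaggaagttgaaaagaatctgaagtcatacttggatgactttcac
Bcl2a1b: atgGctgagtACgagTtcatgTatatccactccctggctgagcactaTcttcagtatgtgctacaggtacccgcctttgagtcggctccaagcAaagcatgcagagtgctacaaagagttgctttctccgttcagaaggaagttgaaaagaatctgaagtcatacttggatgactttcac
Bcl2a1d: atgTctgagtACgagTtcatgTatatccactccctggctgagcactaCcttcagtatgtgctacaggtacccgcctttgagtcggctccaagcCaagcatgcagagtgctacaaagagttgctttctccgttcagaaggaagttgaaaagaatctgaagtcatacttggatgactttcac
Capitals fall at 7 positions in this stretch and at 12 over the whole coding sequence. Bcl2a1a and Bcl2a1b were identical at 97.9% of coding bases, Bcl2a1a and Bcl2a1d at 98.7%, and Bcl2a1b and Bcl2a1d at 98.8%. Of all 50-base windows of a transcript, 69.0% for Bcl2a1a, 57.6% for Bcl2a1b and 79.5% for Bcl2a1d were found letter for letter in another copy. A relative outside the 10 genes, Bcl2a1c, shared 10.4% of its windows. How reads that match several copies were counted is not given in the sources used here, so the split between copies is uncertain, and the sum of the 4 genes was analysed as well.

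The genes lie at separate loci of build GRCm38. On chromosome 9 are Bcl2a1a (chr9:88956900-88962419, plus strand), Bcl2a1b (chr9:89199209-89207827, plus strand), Bcl2a1d (chr9:88723285-88731914, minus strand) and Birc3 (chr9:7848699-7873186, minus strand). Bcl2l1 (chr2:152780668-152831728, minus strand) and Bcl2l11 (chr2:128126038-128162547, plus strand) are both on chromosome 2. Mcl1 is at chr3:95658788-95663176 (plus strand), Cflar at chr1:58711508-58758884 (plus strand), Bax at chr7:45461697-45466898 (minus strand) and Pmaip1 at chr18:66458533-66465565 (plus strand). Gm29094 overlaps Bcl2a1b on the same strand, Gm45808 overlaps Bax on the same strand, and Gm10634 lies across Bcl2a1d on the opposite strand. The strand used in counting is not stated, so reads of these overlaps cannot be told apart.

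Library totals ran from 46564 to 610234 UMIs with a median of 171616, and the 3 Ctrl libraries held 61823 to 89530, at the shallow end. Over all 192 libraries Mcl1 had 28930 UMIs, Cflar 18348, Birc3 4523, Bax 2295, Bcl2l11 2111, Bcl2l1 1417, Bcl2a1b 589, Pmaip1 560, Bcl2a1a 65 and Bcl2a1d 24. Dendritic cell markers were detected for 8 of 8 listed genes, with a summed level of 4750 to 6750 CPM over the groups, lowest in Ctrl. Of these, Cd209a, Flt3 and Zbtb46 were near 0, with 3, 95 and 99 UMIs over all libraries. The sum was mostly H2-Aa (2410 CPM on average over all libraries), H2-Ab1 (1730) and Cd74 (953). Itgax went the other way, at 396 CPM in Ctrl and 311 on average. Macrophage markers (5 of 6 listed were in the table) summed to 6270 to 11600 CPM, highest in Ctrl, and neutrophil markers (7 of 8) to 455 to 890 CPM. The macrophage sum was mostly Lyz2, at 6530 CPM on average over all libraries, with Csf1r next at 776. Sums for T cells (at most 20.8 CPM), B cells (17.7), mast cells and basophils (12) and NK cells (1.84) were near 0, with Cd3e, Pax5, Prf1 and Eomes at 0, and all 5 erythroid markers were at 0.

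Against Ctrl, Cflar was the member that rose most widely. Its 3 Ctrl libraries stood at 88.9, 228 and 99.8 CPM. With LPS they stood at 580, 635 and 510, with CpGB at 511, 410 and 450 and with PAM at 358, 394 and 411 CPM. With cGAMP the libraries stood at 376, 354 and 360 CPM, with SeV at 405, 280 and 251, and with Zymosan at 270, 340 and 234. With HMW they stood at 134, 150 and 128 CPM. Every library of the 6 ligands other than HMW lay above all Ctrl libraries, while the HMW libraries lay inside the Ctrl range.

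A gene was called against Ctrl at an adjusted p under 0.05 and a log2 fold change of at least 1, by edgeR's quasi-likelihood method, with Benjamini-Hochberg adjustment over all genes tested. Cflar rose, with a log2 change of 2.07 (SE 0.21, edgeR adjusted p = 7.15e-17) with LPS, 1.72 (SE 0.22, adjusted p = 2.03e-11) with CpGB and 1.51 (SE 0.23, adjusted p = 9.01e-09) with PAM. It was 1.41 (SE 0.23, edgeR adjusted p = 1.97e-07) with cGAMP, 1.13 (SE 0.24, adjusted p = 0.000122) with SeV and 1.03 (SE 0.24, adjusted p = 0.00131) with Zymosan. With HMW it was 0.02 (SE 0.27, edgeR adjusted p = 1). Zymosan and SeV sit close to the fold threshold, and lost the call under 9 and 7 of 17 alternatives (0.81 to 1.54 and 0.81 to 1.74 over all 17). Without Ctrl replicate 2, which stood at 228 CPM, the changes were 2.58 with LPS, 2.25 with CpGB, 1.98 with PAM, 1.93 with cGAMP, 1.66 with SeV and 1.54 with Zymosan. All these comparisons share the same 3 Ctrl libraries.

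**Figure D1:**
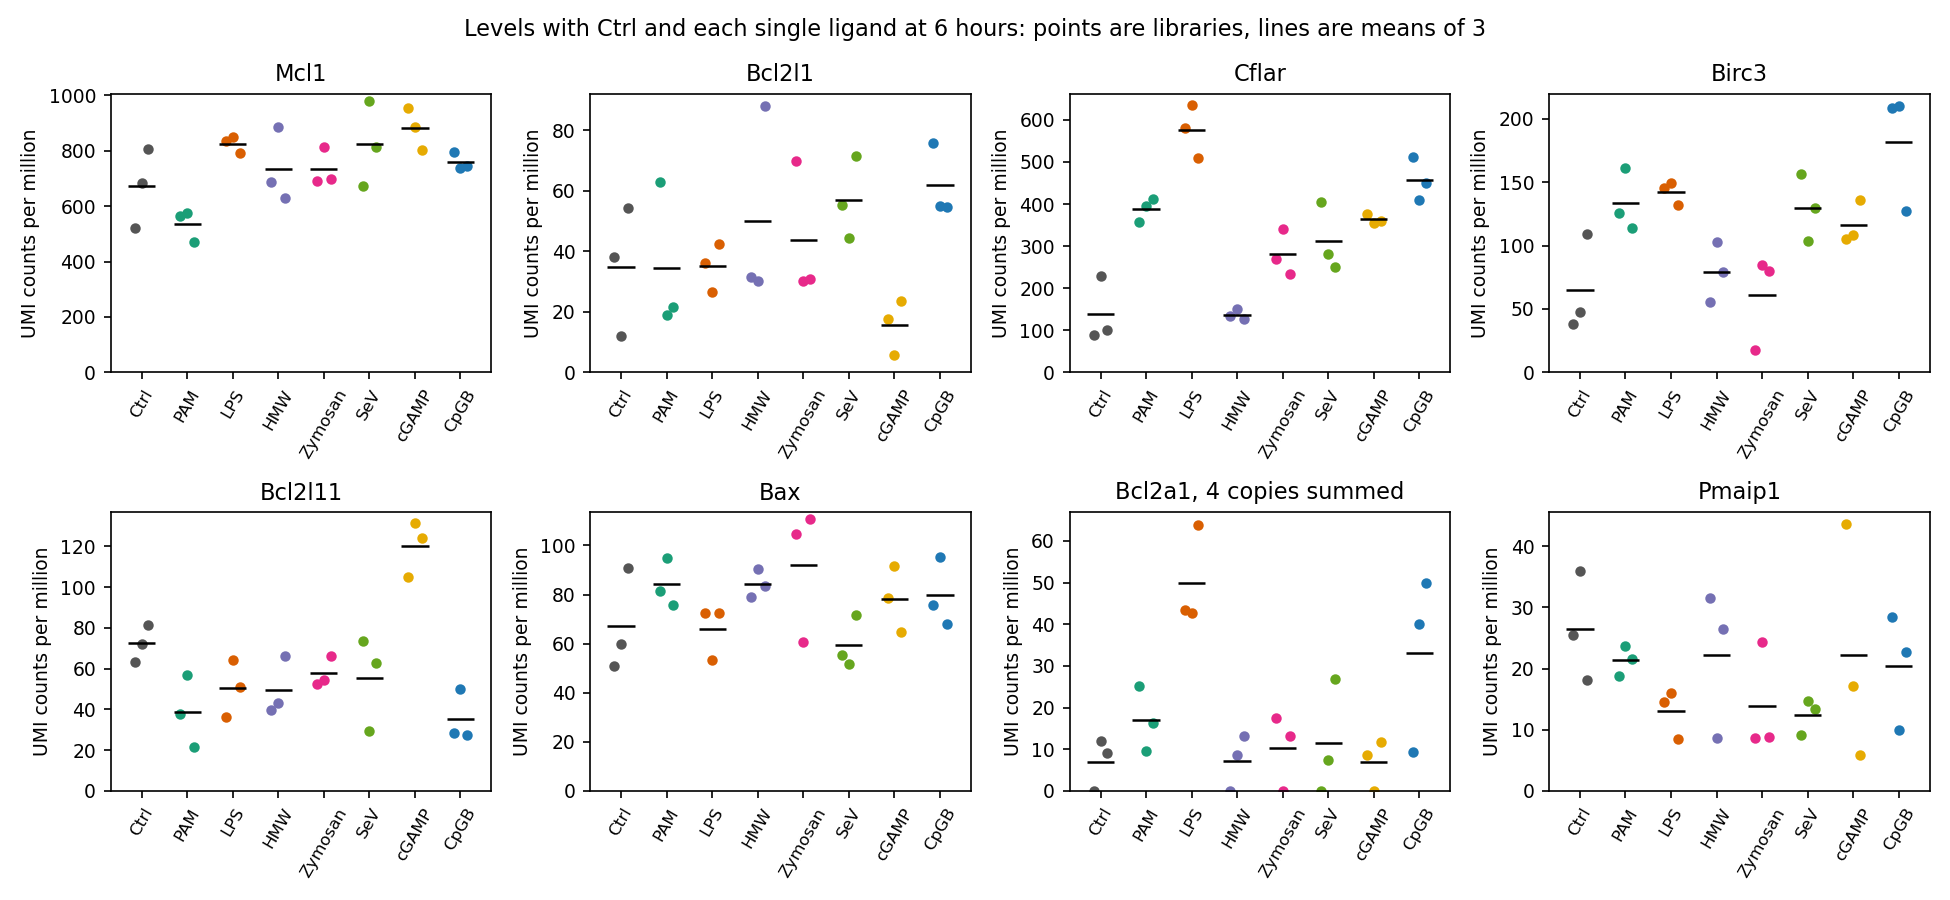
Level in CPM (vertical axis, from 0) of each member in every library of Ctrl and the 7 single ligands (horizontal axis), with a bar at each group mean, 3 libraries a group. The 4 Bcl2a1 genes are summed in their panel. Cflar lies above all Ctrl libraries with every ligand but HMW, and Bcl2l11 is highest with cGAMP.

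Birc3 was the other member called with single ligands. It stood at 38.1, 48.0 and 109 CPM in Ctrl, at 145, 149 and 132 with LPS and at 208, 210 and 127 with CpGB. Both sets lay above all Ctrl libraries, though 1 Ctrl library was far closer to them than the others. Birc3 rose, with a log2 change of 1.02 (SE 0.38, edgeR adjusted p = 0.0306) with LPS and 1.34 (SE 0.37, adjusted p = 0.00301) with CpGB. The LPS call was lost under 9 of 17 alternatives (0.49 to 1.79 over all 17, adjusted p up to 0.451) and the CpGB call under 2 of 17 (0.68 to 2.28, adjusted p up to 0.312). With PAM (125, 161 and 114 CPM) the difference was 0.95 (SE 0.38, edgeR adjusted p = 0.0743), which was not called. SeV gave 157, 103 and 130 CPM, cGAMP 105, 109 and 136, HMW 55.3, 103 and 79.2, and Zymosan 17.4, 85.0 and 79.6, and none of these was called.

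Of the 6 members tested, 2 were called higher with LPS, where 15.0% of all genes tested were, and 2 with CpGB (11.3% of genes). PAM (8.16%), Zymosan (4.49%), SeV (10.7%) and cGAMP (12.1%) each gave 1, Cflar in every case. HMW gave 0 of 6 in edgeR's test, where 1.06% of genes were called higher and 0.0212% lower. Over the 7 ligands this makes 8 of 42 tests higher against 8.96% of all tests, and 0 of 42 lower against 4.61%. For single ligands other than HMW the share of genes called lower was 5.72% with PAM, 9.05% with LPS, 1.78% with Zymosan, 4.68% with SeV, 5.55% with cGAMP and 5.47% with CpGB. At an unadjusted p under 0.05 there were 11 higher and 2 lower, and DESeq2 called 5 higher and 0 lower.

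The guardian Mcl1, a short-lived protein of the outer mitochondrial membrane, moved little with single ligands. It stood at 521, 684 and 807 CPM in Ctrl, at 953, 886 and 803 with cGAMP, its highest, and at 565, 575 and 470 with PAM, its lowest. The cGAMP and Ctrl ranges overlapped by 1 library. The differences of the 7 single ligands ran from -0.34 (PAM, edgeR adjusted p = 0.115) to 0.36 (cGAMP, adjusted p = 0.0607). Over all 63 conditions 0 reached the fold threshold, in edgeR's test and in DESeq2 alike. With no fold threshold 27 of 63 were higher and 0 lower, where 16.9% and 11.4% of all tests were (33 higher and 1 lower at an unadjusted p under 0.05). That count depended on scaling: it was 10 higher and 1 lower with RLE factors and 2 higher and 3 lower with library size alone, and leaving out 1 replicate or 1 Ctrl library gave 12 to 37 higher. Its highest level was in HMW_Zymosan_cGAMP, at 1083.7, 1161.9 and 1139.6 CPM, above all Ctrl libraries (log2 fold change 0.73, edgeR adjusted p = 7.54e-06). The lowest triplet mean was 596 CPM in LPS_cGAMP_CpGB, the lowest pair mean 630 CPM in PAM_CpGB and the highest pair mean 988 CPM in SeV_cGAMP.

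In pairs and triplets Cflar was called in all 21 pairs and all 35 triplets. With the 6 single ligands this made 62 of 63 conditions, a count reached by 41 of the 4720 genes tested (0.869%). The median group mean was 363 CPM with 1 ligand, 495 CPM with 2 and 596 CPM with 3, against 139 CPM in Ctrl. The highest pair was PAM_LPS (584.7, 832.9 and 740.3 CPM) and the lowest HMW_Zymosan (mean 350 CPM). The highest triplet was LPS_cGAMP_CpGB (711.7, 873.9 and 764.0 CPM, log2 fold change 2.52) and the lowest PAM_HMW_CpGB (mean 391 CPM). Under RLE factors, library size alone, DESeq2, without replicate 1 or without Ctrl replicate 3, 60 of 63 were called, HMW, Zymosan and SeV alone being the 3 that were not. After thinning every library to 46564 UMIs in 1 random draw the count was 60 as well, without HMW, SeV and HMW_CpGB.

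Birc3 was called higher in 25 of 63 conditions (2 single ligands, 8 pairs and 15 triplets), and 16.2% of the genes tested were called higher at least as often. Its highest level was in PAM_HMW_SeV, at 232.0, 246.5 and 174.8 CPM (log2 fold change 1.59, SE 0.34, edgeR adjusted p = 4.1e-05). The highest pair was LPS_CpGB (137.7, 248.4 and 168.4 CPM). The lowest pair was Zymosan_cGAMP (mean 83.8 CPM) and the lowest triplet Zymosan_SeV_cGAMP (84.6, 56.6 and 85.0 CPM). The count of called conditions rested on the Ctrl libraries: it was 14 without Ctrl replicate 1, 11 without Ctrl replicate 2 and 43 without Ctrl replicate 3, which stood at 109 CPM. It was 16, 9 and 33 without replicate 1, 2 and 3 of all groups, 14 with RLE factors, 15 in DESeq2, 7 with library size alone and 0 in edgeR's test after that thinning.

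Bcl2l11, the gene of the BH3-only protein Bim, was the 1 tested member called lower, in 2 of 63 conditions, where 8.74% of all tests were (14.5% were higher). In Ctrl it stood at 63.5, 72 and 81.6 CPM. PAM_CpGB had 36.5, 7.1 and 38.4 CPM (log2 fold change -1.45, SE 0.55, edgeR adjusted p = 0.0475) and LPS_HMW_SeV 27.8, 22.2 and 32.3 CPM (-1.44, SE 0.51, adjusted p = 0.0196), all below every Ctrl library. Both calls were lost without the filter on low counts and with each replicate left out in turn, while RLE factors and DESeq2 gave 3 lower and library size alone 6, and at an unadjusted p under 0.05 there were 4 lower and 1 higher. Bcl2l1 and Bax were called in 0 of 63 conditions by edgeR's test and by DESeq2, with 2 higher for Bcl2l1 and 0 for Bax at an unadjusted p under 0.05. With library size alone Bax was called lower in 2 conditions, LPS_SeV and PAM_LPS_SeV. Bcl2l1 was called higher in 1 condition without the filter, with the Bcl2a1 copies summed and without Ctrl replicate 3. Over the 6 members the pairs gave 29 of 126 tests higher and 1 lower, where 14.0% and 8.19% of all tests were called. The triplets gave 50 of 210 higher and 1 lower, against 16.0% and 9.89%.

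Ctrl is only 3 shallow libraries, so the effect of adding each ligand was also averaged over the 22 conditions it was added to: Ctrl, the other 6 single ligands and 15 pairs. Each average is a mean of 22 log2 differences between groups with and without the ligand, and was called at an adjusted p under 0.05 and a size of at least 0.5. Here 3 of 42 tests of members were called higher and 1 lower, where 8.32% and 5.63% of all such tests were. With no size threshold 17 were higher and 4 lower (21.2% and 19.5% of all tests). All 4 calls came from cGAMP and LPS. PAM, Zymosan, SeV, CpGB and HMW called 0 of 6 members at that size, where they called 6.42%, 8.60%, 7.94%, 6.48% and 0.339% of all genes higher and 6.10%, 3.79%, 2.56%, 4.60% and 0.0847% lower. By ligand the shares of all genes higher and lower with no size threshold were 20.4% and 19.5% (PAM), 28.9% and 30.4% (LPS), 9.03% and 1.80% (HMW), 21.3% and 20.2% (Zymosan), 20.8% and 16.7% (SeV), 27.6% and 31.1% (cGAMP) and 20.6% and 16.4% (CpGB). The averages of different ligands share libraries, so they are given side by side and not counted as independent.

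cGAMP had the largest average effects on the Bim and Bcl-xL genes, in opposite directions. Bcl2l11 stood at 105, 131 and 124 CPM with cGAMP alone, above all 3 Ctrl libraries, although that single comparison was not called (log2 fold change 0.72, SE 0.39, edgeR adjusted p = 0.185). Its highest level of all was in HMW_cGAMP (122.2, 127.3 and 127.4 CPM) and its highest triplet Zymosan_SeV_cGAMP (mean 108 CPM). All 3 of these conditions hold cGAMP. Added to PAM_CpGB (36.5, 7.1 and 38.4 CPM), cGAMP brought Bcl2l11 to 67.6, 103.3 and 98.5 CPM, with no overlap between the sets. Added to LPS_SeV (71.3, 47.8 and 33.1 CPM) it gave 45.0, 79.4 and 37.3 CPM, which overlapped, and this was the smallest of the 22 differences, 0.06 on the log2 scale against 1.5 for the largest.

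Over the 22 backgrounds Bcl2l11 averaged 85.4 CPM with cGAMP and 48.7 CPM without it, and was higher in 22 of 22. Its average rise was 0.82 on the log2 scale (SE 0.08, edgeR adjusted p = 1.12e-17), and it lay between 0.71 and 0.90 under 9 alternatives, past the threshold in each. cGAMP called 14.0% of all genes higher and 10.9% lower in this way. Zymosan gave Bcl2l11 0.21 (SE 0.09, edgeR adjusted p = 0.0463), a value that no longer passed under 6 of 9 alternatives. The averages of the other 5 ligands on Bcl2l11 ran from -0.10 to 0.11 and none passed.

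Bcl2l1 stood at 38.1, 12 and 54.4 CPM in Ctrl and at 17.5, 5.71 and 23.6 CPM with cGAMP alone, so the sets overlapped (log2 fold change -1.22, SE 0.75, edgeR adjusted p = 0.249). PAM_Zymosan had 39.6, 75.4 and 75.3 CPM, and PAM_Zymosan_cGAMP 12.3, 24.0 and 24.3 CPM, the lowest triplet, with no overlap. Over the 22 backgrounds Bcl2l1 averaged 31.0 CPM with cGAMP and 47.1 CPM without it, and was lower in 20 of 22. It fell by 0.58 on the log2 scale on average (SE 0.11, edgeR adjusted p = 3.00e-06), and by 0.55 to 0.69 under 9 alternatives. Zymosan raised Bcl2l1 by 0.41 on average (SE 0.11, edgeR adjusted p = 0.00113), from 38.3 to 51.4 CPM, in 19 of 22 backgrounds. Without replicate 2 that value was 0.28 (adjusted p = 0.0883). The highest levels of Bcl2l1 were in PAM_HMW_Zymosan (81.4, 79.0 and 92.8 CPM) and Zymosan_CpGB (78.1, 94.6 and 75.1 CPM), and the lowest pair was PAM_cGAMP (mean 19.8 CPM).

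Other values moved along with cGAMP. The summed macrophage markers, mostly Lyz2, averaged 7360 CPM with cGAMP and 8850 CPM without it, lower in 22 of 22 backgrounds. Of the 5 macrophage genes tested Csf1r alone was called lower, while the dendritic cell markers averaged 5760 and 5680 CPM. Mean library totals were 176000 UMIs with cGAMP and 167000 without. With Zymosan the macrophage sum averaged 7800 CPM against 8640 without it. The part of these in the Bcl2l11 and Bcl2l1 differences was not tested.

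**Figure D2:**
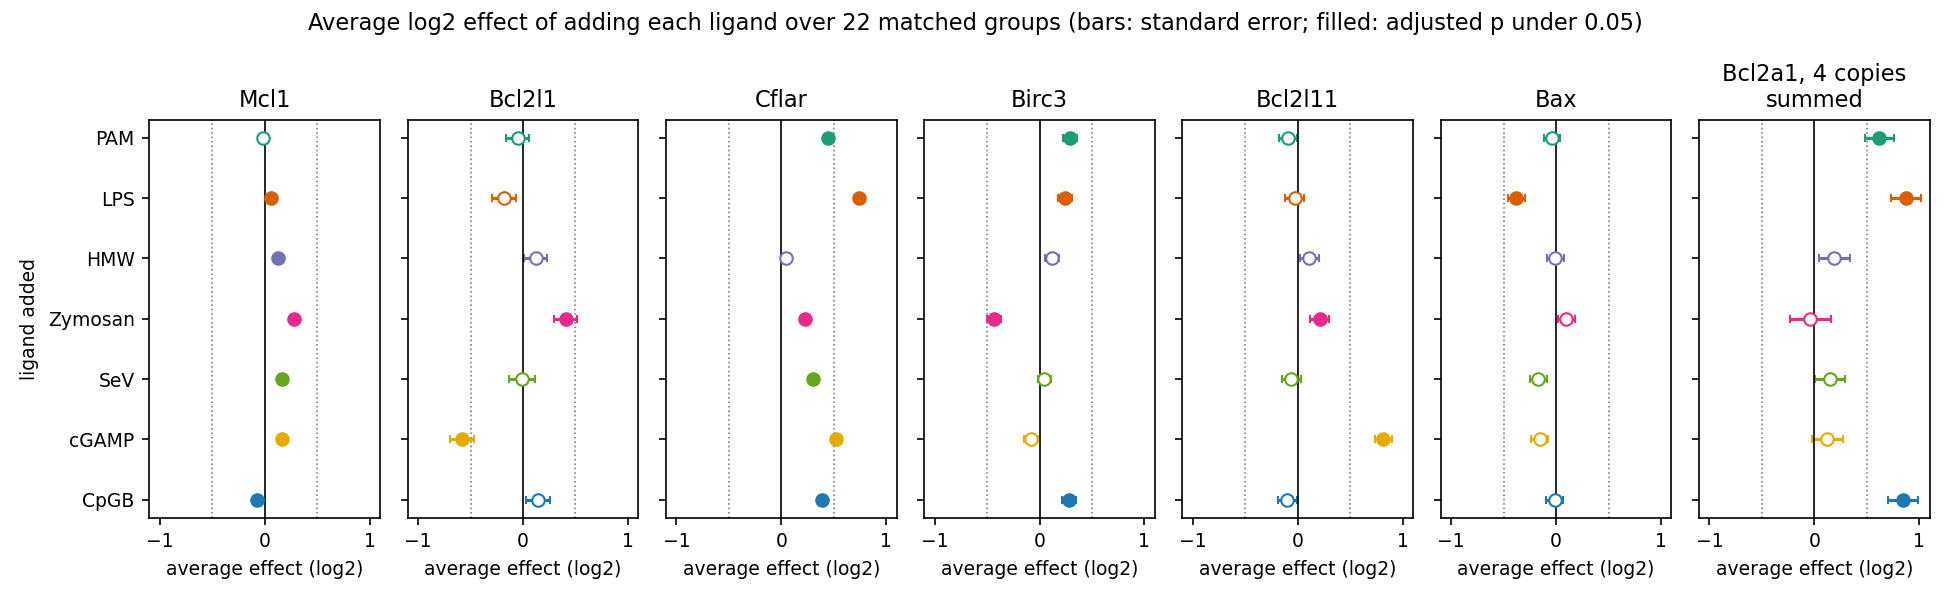
Average log2 effect (horizontal axis) of adding each of the 7 ligands over 22 matched backgrounds, for the 6 tested members and the summed Bcl2a1 genes. Bars are the standard error, filled points had an adjusted p under 0.05, and dotted lines mark -0.5 and 0.5. Bcl2l11 lies farthest right with cGAMP and Bcl2l1 farthest left with cGAMP.

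LPS had the largest average effect on Cflar. Cflar averaged 646 CPM with LPS and 410 CPM without it, higher in 22 of 22 backgrounds, a rise of 0.74 (SE 0.03, edgeR adjusted p = 6.49e-57). LPS called 14.4% of all genes higher and 11.4% lower. cGAMP raised Cflar by 0.52 (SE 0.03, edgeR adjusted p = 4.24e-36), from 443 to 600 CPM, in 21 of 22 backgrounds. This value sits near the threshold of 0.5, and alternatives gave 0.39 to 0.60, under the threshold in 5 of 10. PAM (0.45, 19 of 22), CpGB (0.39, 17 of 22), SeV (0.31, 16 of 22) and Zymosan (0.23, 16 of 22) raised Cflar by less than that threshold, each past an adjusted p of 0.05 in edgeR's test. The median of the 22 differences was lower, 0.61 with LPS (0.17 to 2.08) and 0.28 with PAM (-0.33 to 1.54). It was 0.24 with SeV (-0.31 to 1.45) and 0.11 with Zymosan (-0.34 to 1.28). The largest difference was on Ctrl for LPS and on HMW for PAM, SeV and Zymosan. HMW gave 0.05 (SE 0.03, edgeR adjusted p = 0.468). Cell type markers moved with these ligands. With cGAMP the macrophage sum averaged 7360 CPM against 8850 without it, higher in 0 of 22 backgrounds, with Csf1r called lower. The macrophage sum was lower in 22 of 22 backgrounds with LPS (6990 against 9030 CPM, Csf1r called lower) and with PAM (7770 against 8690, Mrc1 called lower), and averaged 7920 against 8630 CPM with CpGB, where Csf1r and Mrc1 were called lower. With SeV it averaged 8010 CPM against 8570 (higher in 3 of 22) and with Zymosan 7800 against 8640 (higher in 1 of 22). The neutrophil sum averaged 750 CPM with LPS against 685 without (higher in 16 of 22) and 741 with PAM against 685 (14 of 22), although 1 of its genes, Retnlg, was called lower with both. The dendritic cell sum was higher with LPS (6080 against 5490 CPM, 19 of 22, Ccr7 called higher), PAM (6170 against 5520, 20 of 22) and CpGB (5990 against 5510, 20 of 22). Their part in the Cflar differences was not tested.

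Zymosan had the 1 average decrease of Birc3 that passed an adjusted p of 0.05. Birc3 stood at 175.3, 185.3 and 180.6 CPM in SeV_CpGB and at 90.1, 89.2 and 89.9 CPM in Zymosan_SeV_CpGB, with no overlap. This was the largest fall of the 22 differences, -0.92 on the log2 scale against a median of -0.41. At the other end the difference on HMW was 0.16. Over the 22 backgrounds it averaged 101 CPM with Zymosan and 138 CPM without, lower in 20 of 22. It fell by 0.44 on the log2 scale (SE 0.07, edgeR adjusted p = 5.29e-09), and by 0.34 to 0.52 under 10 alternatives, around the threshold of 0.5. PAM (0.29, SE 0.06, edgeR adjusted p = 3.41e-05), CpGB (0.28, SE 0.07, adjusted p = 0.000182) and LPS (0.25, SE 0.06, adjusted p = 0.000502) raised Birc3, each in 18 of 22 backgrounds. The PAM and CpGB values passed under all 10 alternatives, and the LPS value did not with library size alone (0.14, adjusted p = 0.0541) or after thinning (0.15, adjusted p = 0.224). The macrophage and dendritic cell sums moved with PAM, CpGB and LPS as given for Cflar, and their part in these Birc3 rises was not tested. With Zymosan the macrophage markers were 9.75% lower in sum, in 21 of 22 backgrounds, and the part of this in the Birc3 difference was not tested.

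**Figure D3:**
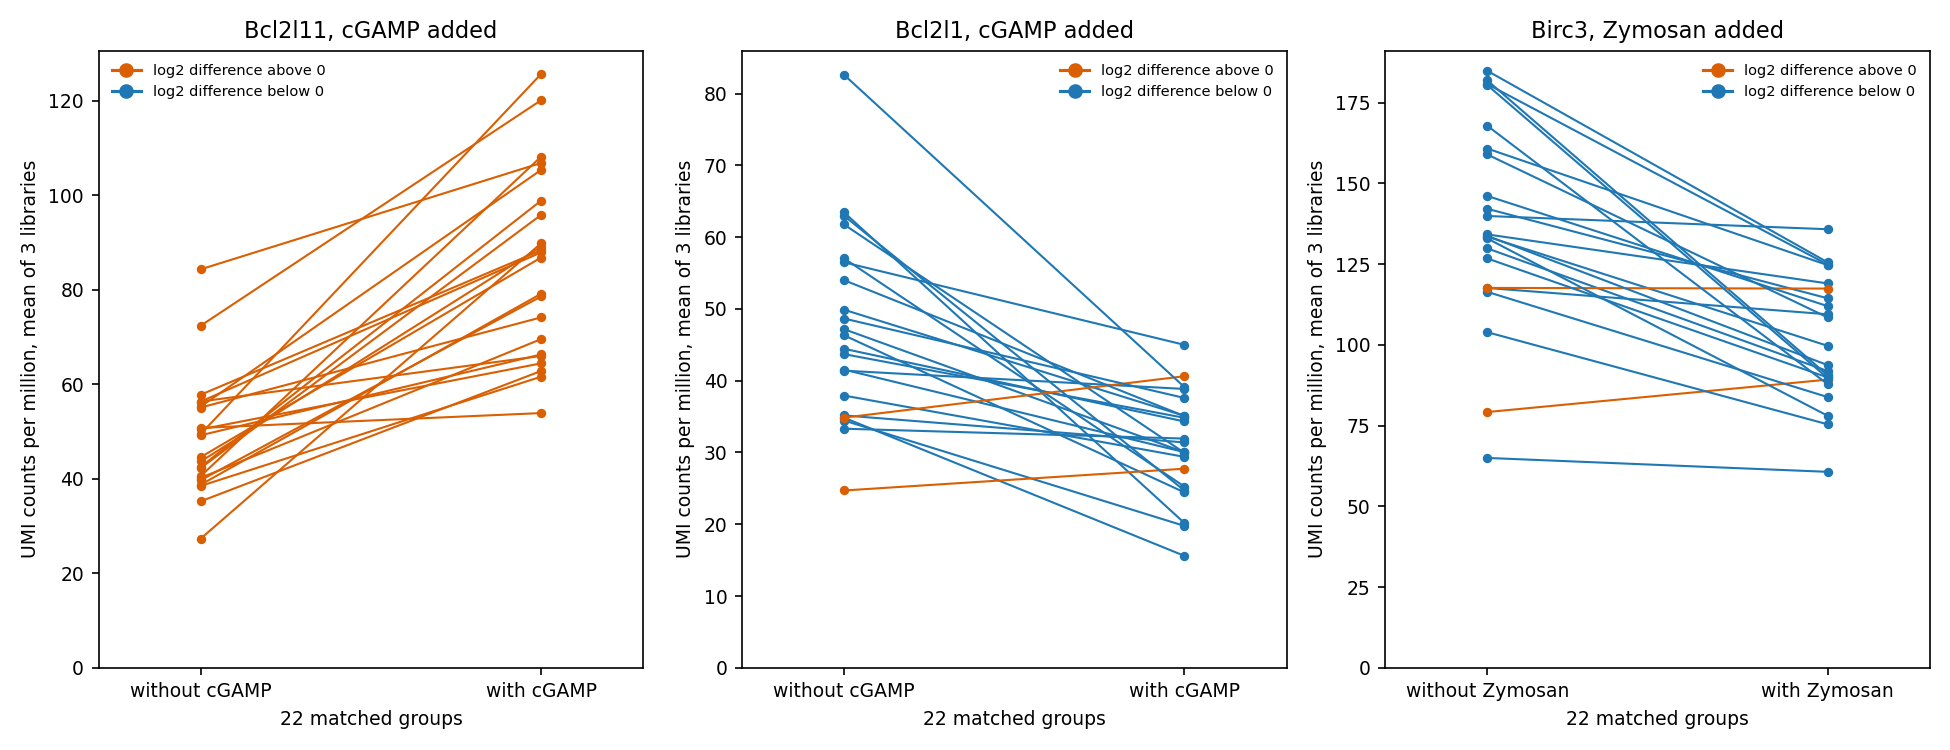
Group means in CPM (vertical axis) of 22 matched backgrounds without and with 1 ligand, joined by lines, for Bcl2l11 and Bcl2l1 with cGAMP and Birc3 with Zymosan. Line colour shows the sign of the log2 difference: Bcl2l11 rises in 22 of 22, Bcl2l1 falls in 20 of 22 and Birc3 falls in 20 of 22.

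Mcl1 rose by 0.28 with Zymosan on average (SE 0.03, edgeR adjusted p = 6.22e-19), from 781 to 948 CPM, in 21 of 22 backgrounds. cGAMP (0.17, 17 of 22), SeV (0.16, 16 of 22) and HMW (0.12, 19 of 22) raised it by less, each past an adjusted p of 0.05 in edgeR's test. After thinning these 3 no longer passed (0.04, 0.09 and 0.09, adjusted p = 0.468, 0.0813 and 0.249), nor did cGAMP with library size alone (0.05). The macrophage sum was lower with Zymosan, cGAMP and SeV, as given beside the other members, and with HMW the mean library total was 207000 UMIs against 159000 without it, higher in 19 of 22 backgrounds. Their part in the Mcl1 rises was not tested. LPS gave 0.06 and CpGB -0.07, with adjusted p of 0.0389 and 0.0386 in edgeR's test, and the LPS value changed sign with library size alone (-0.04) and after thinning (-0.03) and lost that p under 3 more of 10 alternatives, while CpGB lost it under 5 of 10. None of these reached the threshold of 0.5, and PAM gave -0.01 (adjusted p = 0.738).

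Bax, which forms pores in the outer mitochondrial membrane, stood at 50.8, 60.0 and 90.7 CPM in Ctrl and at 72.6, 53.4 and 72.3 CPM with LPS, inside the Ctrl range. Its lowest group was LPS_SeV (39.6, 23.9 and 47.3 CPM), its lowest triplet PAM_LPS_SeV (mean 37.7 CPM), its highest pair PAM_CpGB (54.8, 92.4 and 176.7 CPM) and its highest group Zymosan_SeV_CpGB (50.1, 160.5 and 122.6 CPM). Libraries of the high groups ranged widely. Over the 22 backgrounds Bax averaged 58.9 CPM with LPS and 75.3 CPM without, lower in 16 of 22, an average fall with an adjusted p of 2.35e-05 in edgeR's test (-0.38, SE 0.08). Alternatives gave -0.49 to -0.25. The macrophage markers averaged 6990 CPM with LPS and 9030 CPM without, lower in 22 of 22, and their part in the Bax difference was not tested.

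Combinations raised Cflar by less than the sum of their single ligands on the log2 scale. CpGB with PAM shows it: PAM_CpGB had 337.7, 355.4 and 384.2 CPM, overlapping PAM alone (358, 394 and 411 CPM) and below CpGB alone (511, 410 and 450 CPM). The interaction, which is the pair's log2 change less the changes of its 2 single ligands, was -1.83 (SE 0.28, edgeR adjusted p = 5.81e-08). LPS with CpGB (-1.5, SE 0.27, edgeR adjusted p = 2.30e-06) and LPS with cGAMP (-1.20, SE 0.28, adjusted p = 0.000483) followed. Of 21 pairs, 11 had a negative interaction past an adjusted p of 0.05 and 0 a positive one, where 3.74% and 0.909% of all tests over all genes did, and 17 of 21 were below 0. All 11 use the same Ctrl libraries, and DESeq2 called 5 of 21. Leaving out 1 replicate or 1 Ctrl library gave 3 to 11 negative interactions over all members tested. PAM with CpGB and LPS with CpGB lost the call under 0 of 13 alternatives, while the other 9 lost it under 1 to 9. No other member had a called interaction in edgeR's test or in DESeq2 (at an unadjusted p under 0.05, 4 lower for Birc3 and 2 higher and 1 lower for Mcl1).

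By fitted level 17 of 21 pairs held more Cflar than either of their ligands alone, 1 held less than both and 3 lay between, and 3 of the 17 passed an adjusted p of 0.05. PAM_cGAMP had 590.8, 680.4 and 730.7 CPM, PAM_SeV 461.6, 729.0 and 566.2, and Zymosan_cGAMP 616.3, 507.7 and 635.5, each above all libraries of both its single ligands. The smaller difference was 0.79 for PAM_cGAMP (edgeR adjusted p = 4.02e-05), 0.70 for Zymosan_cGAMP (adjusted p = 0.00194) and 0.61 for PAM_SeV (adjusted p = 0.00576), with no fold threshold. With a fold threshold of 1 on both differences 0 of 126 tests of members passed in edgeR's test and in DESeq2, where 0.337% of all tests were higher and 0.0585% lower, and with none 0.747% were higher. At an unadjusted p under 0.05, 9 of 126 were higher. With a fold threshold of 1 on all differences no triplet was called beyond all its pairs, in 0 of 210 tests by edgeR and by DESeq2. Of all such tests over all genes 0.0109% were higher. At an unadjusted p under 0.05, 1 test of members was higher and 1 lower. These count calls and not levels: the highest Mcl1 triplet mean was 1128 CPM and the highest pair mean 988 CPM.

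Three-way terms were positive for Cflar in 2 of 35 triplets, PAM_LPS_CpGB (1.62, SE 0.35, edgeR adjusted p = 0.000364) and PAM_Zymosan_CpGB (1.5, SE 0.37, adjusted p = 0.00807), and lost the call under 1 and 5 of 13 alternatives. The background was 0.935% of all tests higher and 0.102% lower, and no other member had one. PAM_LPS_CpGB stood at 674.4, 761.5 and 757.5 CPM, near PAM_LPS, its highest pair. PAM_Zymosan_CpGB had a mean of 488 CPM, against 363 for PAM_Zymosan, 464 for Zymosan_CpGB and 359 for PAM_CpGB. These terms subtract pairs with strong negative interactions, so a triplet near its pairs has a positive value.

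**Figure D4:**
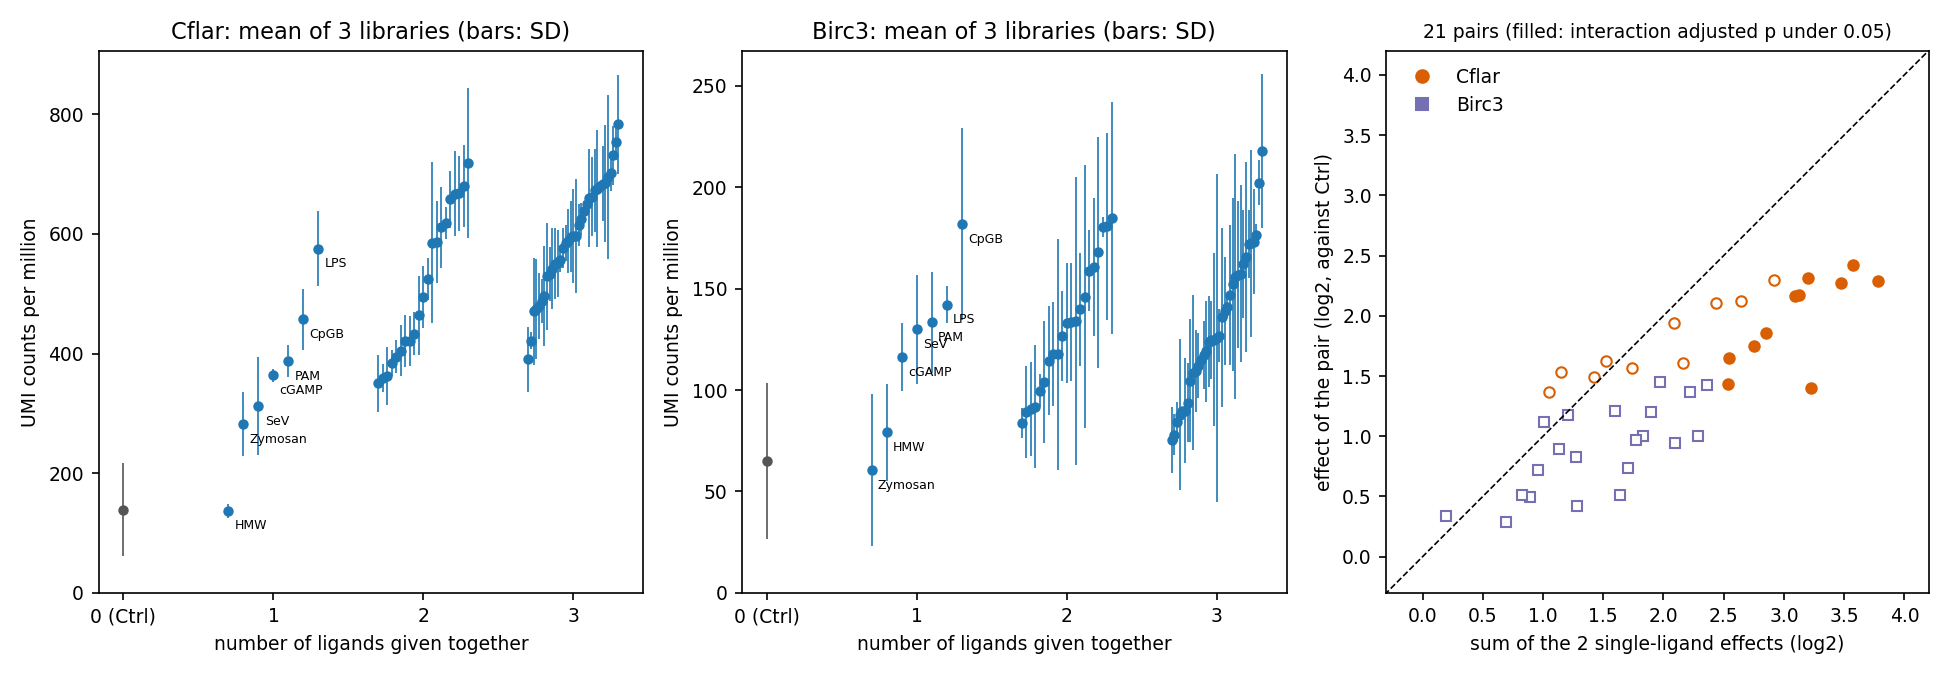
Left and middle, group mean CPM (vertical axis) of Cflar and Birc3 by number of ligands, 1 point a group. Right, the log2 change against Ctrl of each of 21 pairs for Cflar (vertical axis) against the sum of its single-ligand changes, with filled points where the interaction had an adjusted p under 0.05. Of the 21 pairs, 17 lie below the line of equality.

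The 3 Bcl2a1 members encode small guardians of the Mcl1 type that are known as NF-kB targets. Bcl2a1c, which the sum includes, has a shorter coding sequence, 387 bases against 519. The sum is therefore not a level of the 3 members alone. Bcl2a1b had 0 counts in 23 libraries, Bcl2a1a in 137 and Bcl2a1d in 169 of 192. Bcl2a1a was at 0 in all libraries of 23 groups and Bcl2a1d in 44, so nothing about their conditions could be measured here. The part of depth, and of reads that match several copies, in these zeros was not tested. Summed over the 4 genes, the counts were 0, 1 and 1 in Ctrl, 6, 8 and 15 with LPS and 1, 8 and 11 with CpGB. LPS libraries stood above all Ctrl libraries, and CpGB libraries overlapped them. Per UMI of library total, the LPS count was 5.83 times that of Ctrl (95% interval 1.47 to 50.4, exact, counting error only) and the CpGB count 4.4 times (1.07 to 38.9). For LPS against Ctrl, edgeR gave an adjusted p of 0.00819, while an exact two-sided permutation test of 3 against 3 libraries gave p = 0.1, the smallest it can give.

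Of the 1059 UMIs of the sum, Bcl2a1c held 381, and the 3 member copies summed without it did not pass the filter on low counts. Fitted alone without that filter, Bcl2a1c was called higher in 2 of 63 conditions and averaged 0.96 with LPS (SE 0.23, edgeR adjusted p = 0.000372), 0.77 with CpGB (SE 0.23, adjusted p = 0.0103) and 0.53 with PAM (SE 0.22, adjusted p = 0.119). In the fit of the sum the 4 genes together were called higher in 22 of 63 conditions, where 15.2% of all tests were, against 2 counts in all of Ctrl. The count was 12 with RLE factors, 8 with library size alone and 2, 14 and 5 without replicate 1, 2 or 3, and the LPS call was lost without replicate 1 (adjusted p = 0.0565) or replicate 3 (adjusted p = 0.0927). The averages rest on far more counts. Over 22 backgrounds the sum averaged 37.6 CPM with LPS and 22.1 without (0.87, SE 0.14, edgeR adjusted p = 2.93e-08, higher in 18), and 37.2 with CpGB and 23.9 without (0.85, SE 0.14, adjusted p = 8.88e-08, higher in 18). With PAM it averaged 33.6 CPM and without 25.0 (0.62, SE 0.14, edgeR adjusted p = 8.59e-05, higher in 16). Adding LPS called 14.7% of genes higher in that fit (11.2% lower), CpGB 6.63% (4.45%) and PAM 6.33% (6.14%). The dendritic cell and macrophage sums moved with LPS, PAM and CpGB as given for Cflar, and their part in these rises was not tested. All 3 calls held under 5 alternatives each, and the averages of HMW, SeV, cGAMP and Zymosan (0.19 to -0.04) did not pass, where they called 0.339%, 7.99%, 14.2% and 8.75% of genes higher and 0.0847%, 2.50%, 10.4% and 3.62% lower.

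Bcl2a1b alone, fitted without the filter, moved likewise: 0.90 with LPS (SE 0.18, edgeR adjusted p = 1.02e-05, higher in 19 of 22), 0.89 with CpGB (SE 0.18, adjusted p = 2.08e-05, 18 of 22) and 0.68 with PAM (SE 0.18, adjusted p = 0.00173, 17 of 22). In that fit these ligands called 6.41%, 2.58% and 2.95% of genes higher and 5.03%, 2.08% and 2.53% lower. Grouped by how many of PAM, LPS and CpGB were given, a grouping chosen after the values were seen, the summed level had a median of 11.9 CPM over 15 groups with none, 31.8 CPM over 33 groups with 1 and 39 CPM over 15 groups with 2. PAM_LPS_CpGB, the 1 group with all 3, stood at 21.8, 38.3 and 11.1 CPM. The highest group was LPS_cGAMP_CpGB (108.1, 50.4 and 34.4 CPM) and the lowest HMW_SeV (mean 6.59 CPM).

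**Figure D5:**
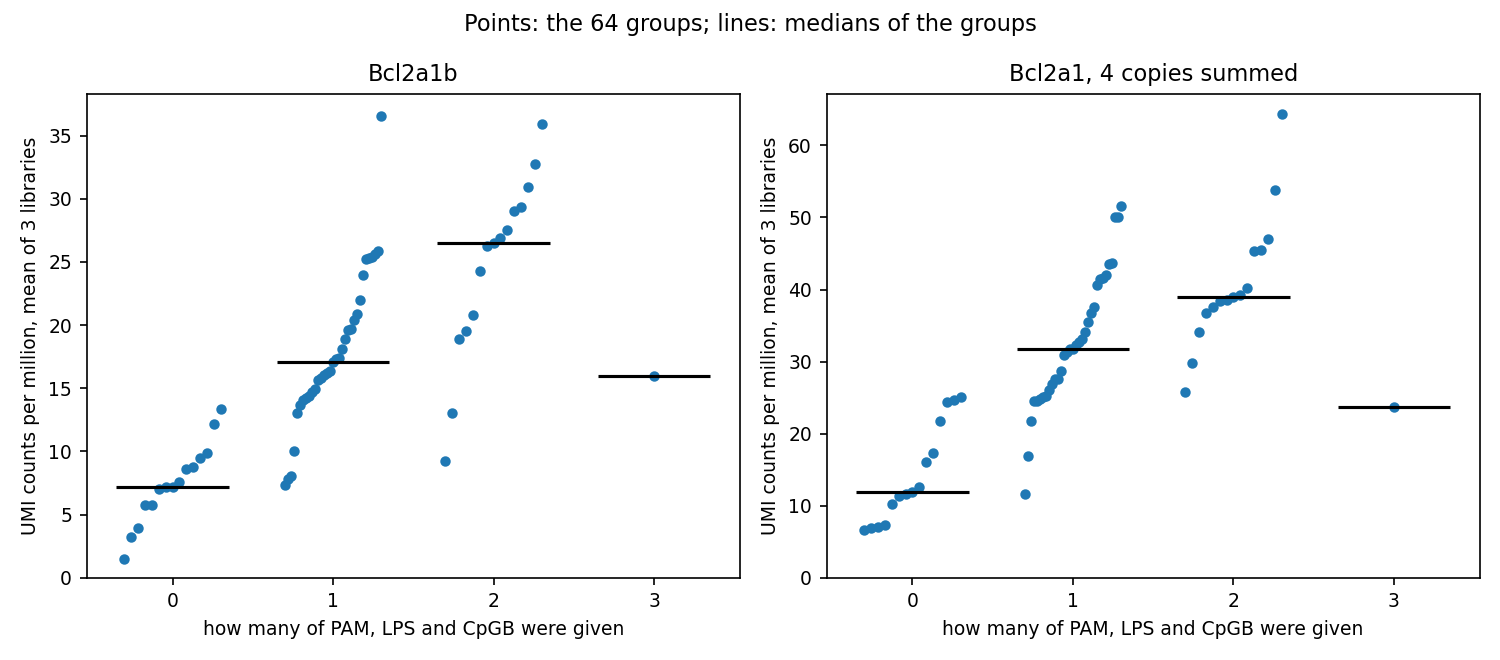
Group mean CPM (vertical axis) of Bcl2a1b and of the 4 Bcl2a1 genes summed, by how many of PAM, LPS and CpGB were given (horizontal axis), 1 point a group, with the median as a bar. Medians of the sum are 11.9, 31.8 and 39 CPM for none, 1 and 2, and the 1 group with all 3 is at 23.7.

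Pmaip1, the gene of the BH3-only protein Noxa, which binds Mcl1, had counts of 2, 3 and 2 in Ctrl (mean 26.5 CPM) and was at 0 in 12 libraries. By fitted value 10 of 63 conditions lay above Ctrl, with a median log2 change of -0.54. Without the filter on low counts it was called in 0 of 63 conditions, as were Bcl2a1a, Bcl2a1b and Bcl2a1d, where 5.13% of all tests were higher and 1.95% lower. Its highest groups both held SeV with cGAMP: SeV_cGAMP had counts of 6, 3 and 10 (52.0, 15.0 and 55.3 CPM) and PAM_SeV_cGAMP 8, 10 and 5 (31.0, 48.7 and 26.0 CPM). PAM_SeV, without cGAMP, had 2, 1 and 0 counts, below all of PAM_SeV_cGAMP. The other 4 triplets with SeV and cGAMP averaged 30.5 CPM (with Zymosan), 26.5 (CpGB), 17.3 (HMW) and 15.0 (LPS), and the interaction of SeV with cGAMP was not called (1.74, SE 1.07, edgeR adjusted p = 0.765). The lowest group was LPS_CpGB, with 1, 0 and 2 counts. Over 22 backgrounds Pmaip1 averaged 21.1 CPM with cGAMP and 14.3 without, higher in 16, an average of 0.57 (SE 0.17, edgeR adjusted p = 0.00555) in a fit where cGAMP called 5.83% of genes higher and 5.37% lower. The macrophage sum was lower with cGAMP in 22 of 22 backgrounds, and its part in this difference was not tested.

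The members followed different courses over the 64 groups. Differences between groups made up 90.9% of the variance of log2 CPM for Cflar, 76.4% for Mcl1, 60.9% for Birc3, 60.1% for Bcl2l11, 45.6% for Bax and 45.2% for Bcl2l1. Of the 191 degrees of freedom 63 (33.0%) lie between groups, so about that share is found with no difference at all, and Bax and Bcl2l1 are nearest to it. The presence of the 7 ligands, with no interaction, accounted for 68.5% of the variance of group means for Cflar, 65% for Birc3, 60.8% for Mcl1, 53.8% for Bcl2l11, 53.1% for Bcl2l1 and 28.8% for Bax. As descriptions over 64 group means that share libraries, depth and Ctrl, Pearson's r was 0.648 between the summed Bcl2a1 genes and Cflar, 0.581 between that sum and Birc3, 0.48 between Birc3 and Cflar, -0.456 between Bcl2l1 and Bcl2l11 and -0.469 between Cflar and Bax.

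Among 4454 other genes that averaged 20 CPM or more, those most like each member by r over the 64 group means were Slfn2 (0.947) and AA467197 (0.946) for Cflar, and Cndp2 (0.829) and Sdcbp (0.816) for Mcl1. For Birc3 they were Ms4a6c (0.8) and Mgat4a (0.761), and for the summed Bcl2a1 genes Fscn1 (0.821) and Gng12 (0.82). Bcl2l11 was most like Rgcc (0.742) and Pcna (0.72), and Bcl2l1 most like Hmox1 (0.704) and Alas1 (0.689). Bax had the weakest match, Rpl10 (0.632) and Slc48a1 (0.625).

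Of 46 other genes of apoptosis, 25 were tested: 5 of 10 on the survival side, 4 of 10 effectors and BH3-only genes, 5 of 12 caspases and apoptosome genes, 8 of 10 on the death receptor side and 3 of 4 on the p53 side. Against Ctrl, LPS called 9 of 25 higher and 1 lower, where 15.0% and 9.05% of all genes were. cGAMP called 5 and 0 (12.1% and 5.55% of all genes), CpGB 4 and 1 (11.3% and 5.47%), SeV 3 and 0 (10.7% and 4.68%), Zymosan 3 and 0 (4.49% and 1.78%), PAM 2 and 1 (8.16% and 5.72%), and HMW 0 and 0 (1.06% and 0.0212%). Their median log2 change was 0.74 with LPS, 0.65 with cGAMP, 0.64 with SeV, 0.57 with CpGB, 0.31 with PAM, 0.18 with HMW and 0.08 with Zymosan, where that of all genes ran from -0.05 to 0.05. Among the called genes, Casp8, which Cflar holds in check, stood at 13.3 CPM in Ctrl (4 counts), 98.9 with cGAMP, 98.8 with SeV and 78.9 with LPS. Its log2 change was 2.71 with cGAMP (SE 0.58, edgeR adjusted p = 6.71e-05), 2.69 with SeV (SE 0.58, adjusted p = 9.83e-05) and 2.37 with LPS (SE 0.59, adjusted p = 0.000636). Averaged over 22 backgrounds its differences were far smaller, 0.63 with SeV (SE 0.08, edgeR adjusted p = 5.44e-12), 0.40 with cGAMP and 0.34 with LPS, the last 2 under the size threshold of 0.5.

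Traf1, an adaptor that binds inhibitor of apoptosis proteins, rose from 59.1 to 290 CPM with PAM (log2 fold change 2.28, SE 0.33, edgeR adjusted p = 1.24e-09). Tnfrsf1b, a receptor for tumour necrosis factor, rose from 695 to 2250 CPM with CpGB (1.70, SE 0.13, edgeR adjusted p = 8.19e-28). Bnip3l, which marks mitochondria for removal, was the called gene with the largest fall with PAM (-1.43, edgeR adjusted p = 0.00804), CpGB (-1.24, adjusted p = 0.0199) and LPS (-1.23, adjusted p = 0.0143). By average effect LPS called 5 of the 25 higher and 2 lower, where 14.4% and 11.4% of all genes were, and cGAMP 4 and 1 (14.0% and 10.9%). PAM called 3 and 1 (6.42% and 6.10% of all genes), CpGB 3 and 1 (6.48% and 4.60%), SeV 3 and 0 (7.94% and 2.56%), Zymosan 3 and 0 (8.60% and 3.79%) and HMW 1 and 0 (0.339% and 0.0847%). Traf1 had the largest average rise with LPS (1.21, SE 0.05, from 168 to 356 CPM) and PAM (1.02, SE 0.05, from 186 to 336 CPM), each in 22 of 22 backgrounds, and Tnfrsf1b with CpGB (0.60, SE 0.02, 19 of 22). The largest average fall was of Bnip3l with LPS (-0.62, SE 0.09, lower in 18 of 22) and of Trp53, the p53 gene, with PAM (-0.68, SE 0.15, 17 of 22) and CpGB (-0.66, SE 0.16, 16 of 22). Bnip3, a relative of Bnip3l, rose most with Zymosan, from 12.5 to 64.4 CPM against Ctrl (2.49, SE 0.75, edgeR adjusted p = 0.017, with 3 counts in Ctrl). It averaged 90.4 CPM with Zymosan and 18.2 without, higher in 22 of 22 (2.32, SE 0.12, edgeR adjusted p = 1.18e-49), and was the 1 gene called with HMW (0.52, SE 0.14, 16 of 22). Mlkl, the executioner of necroptosis, averaged 179 CPM with cGAMP and 105 without, higher in 20 of 22 (1.03, SE 0.07, edgeR adjusted p = 1.77e-34), and had the largest rise with SeV too (0.70, SE 0.07, 17 of 22). With cGAMP the death receptor gene Fas averaged 34.8 CPM, and 52.4 without, lower in 18 of 22 (-0.55, SE 0.11, edgeR adjusted p = 3.17e-06). Marker sums moved with these ligands, and library totals with HMW, as given beside the members. Their part in the differences of these other apoptosis genes was not tested.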

How the data were processed

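Libraries were made by reverse transcription with template switching, pooling and Nextera XT tagmentation, and sequenced on a NextSeq550, per the labels' protocols. The deposited values are raw UMI counts per gene symbol for 192 libraries. BWA 0.7.15 and build mm10 are named in the submitters' processing notes. The annotation, the collapsing of UMIs, the strand and the handling of reads that match several genes are not given in the sources used here. No mitochondrially encoded gene (prefix mt-) was in the table, so that measure of RNA quality could not be made.

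edgeR 4.0.16 (limma 3.58.1, R 4.3.3) fitted all 64 groups together after filterByExpr, which kept 4720 of 23481 genes with 95.7% of UMIs. TMM scaling used library totals over all genes, the common biological coefficient of variation was 10.2% and 128 residual degrees of freedom remained. A standard error is the log2 change divided by the square root of F. Calls needed an adjusted p under 0.05 and a log2 change of 1 against Ctrl or 0.5 for averages. Interactions had no size threshold. For a pair against both single ligands, or a triplet against all its pairs, the largest p was adjusted. The scripts were tested on simulated data.

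The members, gene lists and tests were chosen with earlier results of these data known. All members were described, and of other apoptosis genes those with the largest called rise or fall per ligand, against Ctrl or on average; the genes most like each member were the 2 with the highest r. Nothing says that the 3 libraries of a group came from separate cultures or animals, so p-values measure only the spread between these samples. No pairing by replicate number was seen by the rule used: in 0 of 63 conditions did every same-numbered pair correlate above 0.1 with Ctrl. That rule cannot exclude an effect shared by same-numbered libraries. No 2 libraries held identical values. Alternatives were RLE factors, library size alone, no filter, thinning to 46564 UMIs, DESeq2 1.42.0, summed Bcl2a1 genes, a replicate block and leaving out each replicate or Ctrl library. The alternatives for the summed Bcl2a1 genes (RLE factors, library size alone, each replicate left out, and only the 3 member copies summed) were chosen after seeing the data. Locations and sequences come from GENCODE M21. Counting intervals are exact.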

Additional observations from a re-analysis of the deposited data

How the results depend on the processing

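Of the alternative values, average effects kept their direction and an adjusted p under 0.05, whatever their size, in 197 cases, lost that p in 21 and reversed in 2, the LPS effect on Mcl1 (-0.04 with library size alone, -0.03 after thinning). Interactions kept both in 105 and lost the threshold in 64, and single-ligand changes in 109 and 27. Counts stayed within 1.5 times in 200 cases and moved in 46; unless stated, the cause was not tested. Member calls with single ligands were 5 higher with RLE factors, with library size alone, with DESeq2 and after thinning, and 1 lower with library size alone. For pairs the lower calls were 3 with library size alone and 0 with no filter, after thinning and with copies summed. For triplets they were 2 with RLE factors and with DESeq2, 4 with library size alone, and 0 with no filter and after thinning. Average effects called higher were 7 with no filter, 6 with copies summed, 1 after thinning and 17 with no fold threshold, and lower 4 with no fold threshold. The fit with no filter tested all 10 members and that with copies summed 7 genes, against 6 in the main fit. Counts from those 2 fits therefore include added genes. Negative pair interactions were 5 with RLE factors and with DESeq2, 7 with no filter and 3 after thinning. Positive three-way interactions were 0 after thinning, and pairs above both single ligands 3 with no fold threshold. Leaving out 1 library or replicate gave 5 to 8 higher calls for single ligands, 23 to 36 higher and 0 to 0 lower for pairs, 42 to 60 higher and 0 to 1 lower for triplets, 2 to 5 higher and 1 to 2 lower average effects, 3 to 11 negative pair interactions and 1 to 5 positive three-way interactions.

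With the replicate block Cflar was called in 62, Birc3 in 24 and, with no fold threshold, Mcl1 in 29 of 63 conditions; same-numbered libraries had a mean r of 0.00828 and others -0.00414. Scaling moved the median change of all genes against Ctrl by -0.183 with RLE factors, -0.187 with DESeq2 and -0.323 with library size alone, and the higher share of single-ligand calls over all genes from 66% to 54.4%, 54.6% and 50.2%. For pairs that share went from 63% to 51.2%, 50.8% and 42.7%, and for triplets from 61.8% to 50.1%, 49.2% and 40.5%. Summing the 4 copies made edgeR choose another reference library for TMM. Thinning was 1 random draw, whose error its counts carry, and left fewer genes, with Mcl1, Birc3 and Cflar the members tested, and the 3 member copies summed did not pass the filter and gave no value. Depth limits comparisons with Ctrl, which held 2 counts of the summed Bcl2a1 genes and 7 of Pmaip1.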
